A study of Mus musculus with 7 samples.

Results

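The subunits of the BAF chromatin remodeller and of the Polycomb complexes are described here through a time course of Brn2 induction in mouse embryonic stem cells. They are 37 genes of the 20294 in the deposited table, named by their membership of the complexes and not by their values. All 37 were found by RefSeq accession, 9 of them overlap a protein-coding gene on the opposite strand (Smarcc1, Smarcd1, Smarcd3, Actl6a, Phf10, Pbrm1, Mtf2, Rnf2 and Cbx7) and may hold reads of that gene, and the row with the highest mean was used for the 12 genes with more than 1 row. BAF and its variant PBAF account for 20 of them, Polycomb repressive complex 2 (PRC2) for 7 and Polycomb repressive complex 1 (PRC1) for 10. The cells are E14, an embryonic stem cell line of the mouse, kept in 2i medium, which holds such cells in a naive state. Every library, that of 0 h included, came from cells carrying the Brn2-RFP GAVPO cassette, in which a light-switched activator drives Brn2, a POU-domain factor of neural cells listed as Pou3f2, together with a red fluorescent protein. Light from an LED (300 µW) was given for 0, 2, 4, 6, 14, 24 or 48 h. Each duration is 1 library, so there are 7 in all, and none is from unlit or cassette-free cells at a later time.

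BAF uses ATP to slide and eject nucleosomes, and each of its positions can be filled by one of several related subunits. In mouse neural development some of these positions change hands, so that stem cell, progenitor and neuronal forms of BAF are told apart by their subunits. PRC2 methylates the lysine of histone H3 that marks silenced developmental genes, and PRC1 ubiquitinates histone H2A and compacts chromatin. BAF and Polycomb are known to oppose each other at many genes.

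Depth, recovered from the spacing of the values, ranged from 7.06 M reads (4 h) to 16.2 M reads (48 h). Pou3f2 stood at 77.0, 36.9, 47.3, 96.2, 119, 41.3 and 7.19 in order of time, so the library labelled 0 h already held its RNA and the library labelled 48 h held least. Trends below are against the labelled hours. The 5 stem cell markers (Pou5f1, Nanog, Sox2, Zfp42 and Klf4) had a summed value between 354 and 487 throughout, but differed singly. From the first to the last library Pou5f1 went from 154 to 235, Sox2 from 74.3 to 97.0 and Zfp42 from 55.5 to 34.3. Nanog went from 81.4 to 67.3 with 33.4 at 14 h, and Klf4 from 46.3 to 44.5 with 24.9 at 24 h. For the 4 neuronal markers (Tubb3, Neurod1, Map2 and Dcx) the sum was 9.06 in the first library and 88.4 in the last. Map2, whose long span keeps its values low, went from about 31 reads to 502, and Dcx from about 5 reads to 123. The 3 neural progenitor markers (Sox1, Pax6 and Nes) summed to between 1.84 and 4.08. The 5 fibroblast or feeder markers summed to between 0.417 and 3.24, the latter at 48 h with Col1a2 at 2.16. Col1a2 went from about 24 reads at 0 h to 315 at 24 h and 1257 at 48 h. Thy1 was highest at 6 h (1.39), and Col1a1 and Postn were at most 0.0729 and 0.0145. Col3a1 was listed at 0 in 5 of the 7 libraries. In bulk RNA, fewer cells of a type and less RNA per cell cannot be told apart, and the part of such cells in the results was not tested.

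Libraries also differed by transcript GC content, in step with the ends of the time course. Among genes with a mean value of at least 5, the 10% richest in GC had a median deviation from their own means of -0.35 (log2) in the 0 h library and 0.51 in the 48 h library, and the 10% poorest in GC one of 0.27 and -0.57. This did not move steadily, since the GC-rich genes stood at 0.23 and 0.19 at 6 and 14 h and at -0.18 at 24 h. The members span 38.2% (Mtf2) to 60.7% (Ring1) GC, and results are therefore given with and without this trend.

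None of the 37 genes passed the main test for a trend with time, and 3 of them passed in a fit on reads: Smarcd3 and Cbx7 rose and Mtf2 fell. Values are reads per kilobase of a gene's whole genomic span per 1 M reads of depth (RPKM over the span, M being a factor of mega), a unit inferred from the numbers. The main test fits log2(value + 1) to log2(hours + 1) with limma, and a change is the fitted log2 difference between 0 and 48 h. Calls are made where p, adjusted by Benjamini-Hochberg, is under 0.05 over all 6411 genes with a mean value of at least 1. Of the 27 members that reached that mean 0 were called by limma, beside 0.359% of all tested genes. At an unadjusted p under 0.05 there were 9 members (33.3%, beside 21.5% of all genes). They were 5 with positive changes (Cbx7, Smarcd1, Smarcd2, Smarcd3 and Dpf1; background 11.6%) and 4 with negative ones (Eed, Suz12, Mtf2 and Ezh2; background 9.9%). Smarcd3 reached the mean of 1 only with its 48 h library and Mtf2 only with its 0 and 2 h libraries, so the filter itself favoured a difference in both. Once the GC trend was removed, limma called 0 members, beside 0.218% of all genes, and 7 had an unadjusted p under 0.05, beside 17.3%. The fit on recovered reads (limma-voom) tested 35 members among 13498 genes and called 3 (8.57%, beside 3.05% of all genes), of which 2 rose (background 2.25%) and 1 fell (background 0.8%). Removing the GC trend there left 0 members called, beside 2.36% of genes, and 9 at an unadjusted p under 0.05, beside 20.2%. No time point is replicated, so these p-values measure scatter of single libraries around a line.

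**Figure D1:**
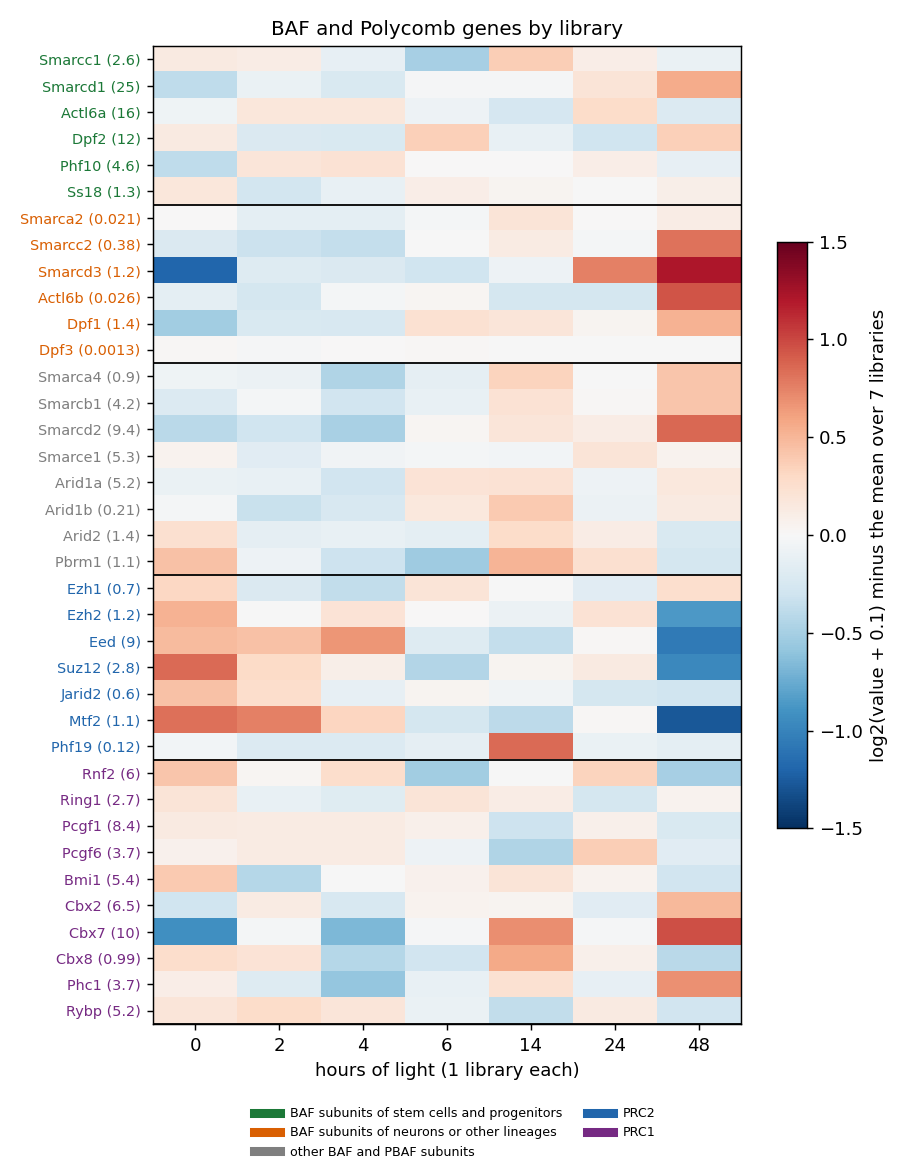
Each row is 1 of the 37 genes and each column the library of 1 time point; colour is log2(value + 0.1) minus the gene's mean over the 7 libraries, and the number beside a name is its mean value. The darkest blue cells of the 48 h column belong to Mtf2, Eed and Suz12 and the darkest red ones to Smarcd3, Cbx7 and Actl6b.

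Eed, Suz12, Mtf2 and Ezh2 of PRC2 had the 4 lowest fitted changes of the 27 tested members as deposited; after GC removal Ring1 and Pcgf1 of PRC1 lay below Ezh2. The 4 PRC2 genes tested (Ezh2, Eed, Suz12 and Mtf2) all had a negative change, median -0.99, beside a median of 0.0059 over all tested genes, and 0 were called. Removal of the GC trend moved their median to -0.64 and that of all genes to -0.049. Outside the members, the PRC2 genes Aebp2, Rbbp7, Phf1, Rbbp4 and Epop had changes of -0.92, -0.47, -0.17, -0.077 and 0.41. After GC removal these were -0.61, -0.15, -0.66, 0.31 and -0.45. With these genes included, PRC2 had no single direction of change, since Epop was positive as deposited and Rbbp4 after GC removal. On reads all 7 PRC2 members were tested, and 6 had a negative change, median -1.06, with Mtf2 called. Of all 13498 genes tested on reads, 7084 had a negative change. After GC removal on reads all 7 members had a negative change, beside 7564 of all genes, and 0 were called. Their median was then -0.80, beside -0.091 over all genes. The promoter windows of Eed, Suz12, Ezh2 and Mtf2 are shown because these genes are the members described together here. Each window runs from 250 bases before to 50 after the annotated start. They are RefSeq sequences of build GRCm38.p6, written 5′ to 3′ on the gene's strand, with matches to 6 motifs in capitals.

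Eed, chr7:89980927-89981226, minus strand: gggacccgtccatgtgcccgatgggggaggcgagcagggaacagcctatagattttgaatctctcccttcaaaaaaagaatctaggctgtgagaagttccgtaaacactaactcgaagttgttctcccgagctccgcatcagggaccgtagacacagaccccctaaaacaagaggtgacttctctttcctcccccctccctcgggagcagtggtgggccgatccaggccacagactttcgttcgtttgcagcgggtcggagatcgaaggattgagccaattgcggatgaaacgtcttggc
Suz12, chr11:79992856-79993155, plus strand: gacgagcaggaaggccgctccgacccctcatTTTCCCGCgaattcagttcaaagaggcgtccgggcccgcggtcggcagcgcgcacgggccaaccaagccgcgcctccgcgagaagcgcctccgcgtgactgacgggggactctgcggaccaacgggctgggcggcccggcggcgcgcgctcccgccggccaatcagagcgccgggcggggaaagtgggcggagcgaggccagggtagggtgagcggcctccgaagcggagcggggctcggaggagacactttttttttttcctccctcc
Ezh2, chr6:47594981-47595280, minus strand: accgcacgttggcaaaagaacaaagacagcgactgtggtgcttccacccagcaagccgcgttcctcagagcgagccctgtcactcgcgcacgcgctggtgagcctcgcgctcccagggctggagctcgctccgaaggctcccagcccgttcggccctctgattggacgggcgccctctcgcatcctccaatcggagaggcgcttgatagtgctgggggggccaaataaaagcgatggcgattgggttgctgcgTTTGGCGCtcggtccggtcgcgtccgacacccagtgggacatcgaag
Mtf2, chr5:108065424-108065723, plus strand, the first of 2 annotated windows: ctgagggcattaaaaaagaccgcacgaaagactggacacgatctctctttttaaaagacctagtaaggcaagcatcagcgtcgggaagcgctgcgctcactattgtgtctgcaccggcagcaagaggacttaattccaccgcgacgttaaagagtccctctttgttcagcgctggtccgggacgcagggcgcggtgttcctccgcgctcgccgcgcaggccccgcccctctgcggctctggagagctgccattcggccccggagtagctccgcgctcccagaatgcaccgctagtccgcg

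The Suz12 window holds TTTCCCGC from base 32 and the Ezh2 window TTTGGCGC from base 254, both letters of E2F sites, which cell cycle factors bind. Read on both strands, TTTCCCGC was in 1.07% and TTTGGCGC in 0.514% of 32851 RefSeq windows of the same length. Among the 31 members with a window, 4 held the first (Arid1a, Phf19, Smarcd1 and Suz12) and 1 the second. Members were counted by gene, over any of their windows, and the shares by window. Both sites contain CG, and member windows had a median of 29.5 CG dinucleotides, so these shares are not a matched background. The ETS site CCGGAAGT (3.89% of windows), the palindromic NRF1 site (0.971%) and the octamer ATGCAAAT of POU factors (1.74%) matched in none of the member windows. CG dinucleotides numbered 17 in the window of Eed, 41 in Suz12, 31 in Ezh2 and 30 in Mtf2, where the median of all windows is 7.

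Eed encodes the subunit that reads the methyl mark and stimulates the enzyme. Its values were 11.8, 11.5, 13.4, 7.41, 6.60, 8.57 and 4.01 in order of time. The 3 earliest libraries lay above all 4 later ones, and 48 h was lowest. The fitted change was -1.26 ± 0.36 (SE; limma adjusted p = 0.113), or -1.15 after GC removal (adjusted p = 0.115), which leaves 91.4% of it. Reads gave -1.42 (limma-voom adjusted p = 0.067), or -1.27 after GC removal (adjusted p = 0.066).

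Suz12, the scaffold of PRC2, had values of 4.75, 3.18, 2.76, 1.88, 2.65, 2.86 and 1.27. The 0 h library was highest, the 48 h library lowest, and those between were in no order. Its change was -0.99 ± 0.30 (SE; limma adjusted p = 0.122), of which 62.6% was left after GC removal (-0.62, adjusted p = 0.206). The second row of the gene ran alike, from 4.62 in the first library to 1.29 in the last.

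Mtf2 is a Polycomb-like accessory subunit that brings PRC2 to CG-rich DNA, and it is the member poorest in GC. It stood at 1.77, 1.68, 1.21, 0.774, 0.704, 0.967 and 0.335, with the 3 earliest libraries above all later ones, as for Eed. It fell in the fit on reads (-2.11 ± 0.43 SE, limma-voom adjusted p = 0.028), from about 1142 reads in the 0 h library to 234 in the 48 h library. It missed the threshold there after GC removal (-1.23, adjusted p = 0.0504) and in the main test (-0.99, adjusted p = 0.073), and the call was lost without the 4 h library (adjusted p = 0.055) or the 48 h library (adjusted p = 0.412). All 5 rows of the gene were higher at 0 h than at 48 h, by 2.90 to 5.91 times. Tmed5 overlaps it on the opposite strand and went from 3.71 to 2.14; for the use of strand in counting, no setting is stated.

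Ezh2, the methyltransferase of dividing cells, had values of 1.64, 1.11, 1.30, 1.12, 1.05, 1.32 and 0.571, lowest at 48 h (change -0.51, limma adjusted p = 0.212; after GC removal -0.34, adjusted p = 0.327). Ezh1, the enzyme of resting cells, had 0.886, 0.580, 0.514, 0.806, 0.690, 0.606 and 0.843, with the first and last libraries highest (on reads -0.036, limma-voom adjusted p = 0.961). Neither passed a test. Jarid2, which helps place PRC2 at its targets, was under the mean of 1 on this scale, with values from 0.837 (0 h) down to 0.464 (48 h); its change on reads was -0.86 (adjusted p = 0.094), or -0.82 after GC removal (adjusted p = 0.108). Phf19, another Polycomb-like subunit, had 0.106, 0.0844, 0.0843, 0.0939, 0.282, 0.0993 and 0.0919, where the high library of 14 h rests on about 52 reads.

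**Figure D2:**
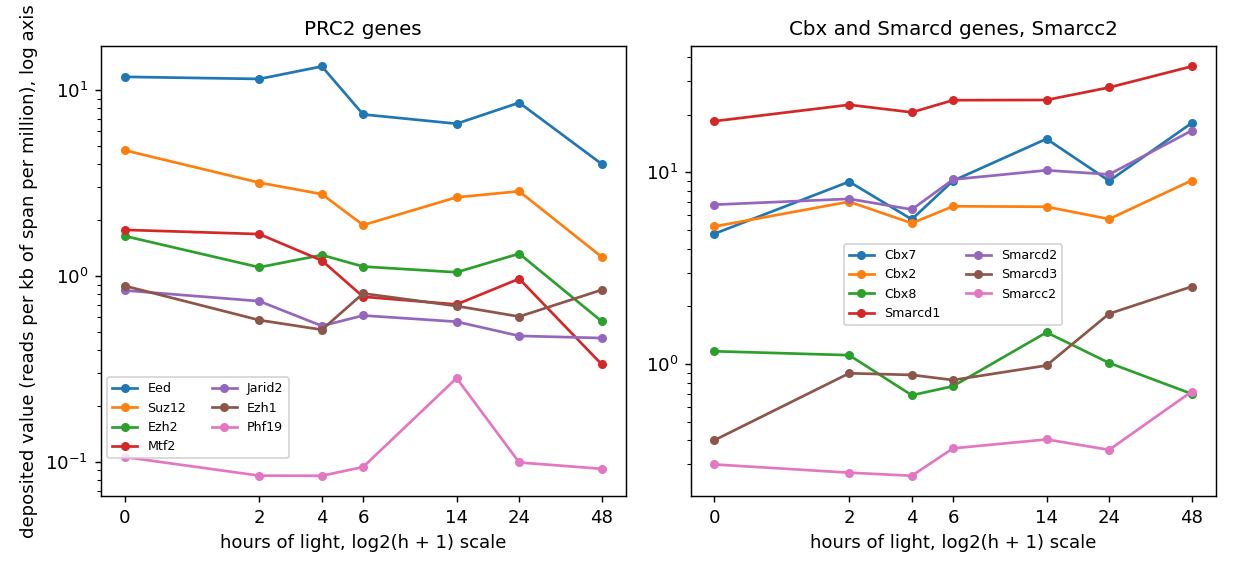
Deposited value (log axis) of the PRC2 genes (left) and of Cbx and Smarcd genes with Smarcc2 (right) against hours of light on a log2(h + 1) scale, 1 point per library. Eed, Suz12, Ezh2 and Mtf2 were lowest at 48 h, where Smarcd1, Smarcd2, Smarcd3, Smarcc2, Cbx2 and Cbx7 were highest.

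In the library of 24 h Eed, Suz12, Mtf2 and Ezh2 were each higher than in the libraries of 6 and 14 h. It is also the late library in which GC-rich genes stood low. Suz12 and Ezh2 kept no order in the other libraries either, with Suz12 higher at 14 h than at 6 h and Ezh2 higher at 4 h than at 2 h. After GC removal Eed was still higher at 24 h (7.96) than at 6 h (7.75) and 14 h (6.82). Suz12 (2.47) was then above 6 h (2.16) and below 14 h (2.86), and Mtf2 (0.802) and Ezh2 (1.18) were below 6 h (0.928 and 1.25) and above 14 h (0.791 and 1.10). The 24 h library was singled out because these genes stood high in it, so leaving it out favours calls among them. Without the 24 h library the fit on reads called 7 members. Cbx7, Smarcd2 and Smarcd3 rose (8.57% of members tested, background 3.52%) and Eed, Ezh2, Mtf2 and Suz12 fell (11.4%, background 2.38%). Calls over all genes went from 304 to 471 rising and from 108 to 318 falling. The 7 calls are therefore no support for a trend. Without the 48 h library limma-voom called 0 members, beside 0.0304% of genes rising and 0.0228% falling.

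PRC1 genes had no common direction. Of the 9 tested, 3 had a positive and 6 a negative change, median -0.14, or 0.032 after GC removal, and 0 were called. Cbx7 is the chromodomain subunit that carries PRC1 to the methyl mark in mouse stem cells. It stood at 4.78, 8.93, 5.68, 9.03, 14.9, 9.02 and 18.1, lowest at 0 h and highest at 48 h, with 14 h above 24 h. It rose in the fit on reads (1.68 ± 0.40 SE, limma-voom adjusted p = 0.048) but not after GC removal (1.13, adjusted p = 0.102) or in the main test (1.496, adjusted p = 0.091). The call held without the 24 h library and was lost without any 1 of the other 6, with adjusted p from 0.0506 (without 2 h) to 0.507 (without 48 h). Apobec3 overlaps Cbx7 on the opposite strand and stood at 2.73 in the first and 4.39 in the last library.

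Cbx2 and Cbx8 encode chromodomain subunits associated with differentiating cells. Cbx2 had values of 5.22, 7.02, 5.43, 6.65, 6.61, 5.70 and 9.06, highest at 48 h (0.43, limma adjusted p = 0.363), and its change was -0.032 after GC removal. Cbx8 had 1.17, 1.11, 0.688, 0.767, 1.46, 1.01 and 0.700, highest at 14 h and lowest at 4 h (on reads -0.40, limma-voom adjusted p = 0.674). The log2 ratio of Cbx2 to Cbx7 had a fitted change of -1.16 ± 0.33 (SE) and that of Cbx8 to Cbx7 one of -1.94 ± 0.51. Over all 5040 orders of the libraries, in an exact two-sided permutation test adjusted over the 12 pairs compared, p was 0.076 and 0.073, and after GC removal 0.055 and 0.046.

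Rnf2 and Ring1 encode the ubiquitin ligases of PRC1. Rnf2 had values of 7.76, 5.90, 6.95, 4.00, 5.77, 7.30 and 4.06, lowest at 6 and 48 h (-0.47, limma adjusted p = 0.419; 0.058 after GC removal). Ring1 had 3.06, 2.46, 2.34, 3.06, 2.88, 2.20 and 2.77, highest at 0 and 6 h (-0.10, adjusted p = 0.807; -0.61 after GC removal, adjusted p = 0.145). Their ratio turned with that step: Ring1/Rnf2 had a change of 0.41 ± 0.62 as deposited (SE; exact permutation test, adjusted p = 0.635) and of -0.87 ± 0.16 after GC removal (adjusted p = 0.046). They lie near opposite ends of the members' GC range, at 40.4% and 60.7%.

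The other PRC1 genes gave no call in either fit. Bmi1, a ring-finger partner of the ligases, lay between 3.96 and 7.08, highest at 0 h, and its change of -0.25 was 0.29 after GC removal. Rybp, of variant PRC1, lay between 3.99 and 6.27, and Pcgf1, also of variant PRC1, between 6.73 and 9.13. Pcgf6, known from a variant PRC1 of stem cells, lay between 2.63 and 4.72. Phc1, a subunit that lets PRC1 form chains, lay between 2.34 and 5.77 and was highest at 48 h (0.46, limma adjusted p = 0.411; 0.18 after GC removal). Leaving out 48 h gave it a change of 0.025, and leaving out 0 h one of 1.01.

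**Figure D3:**
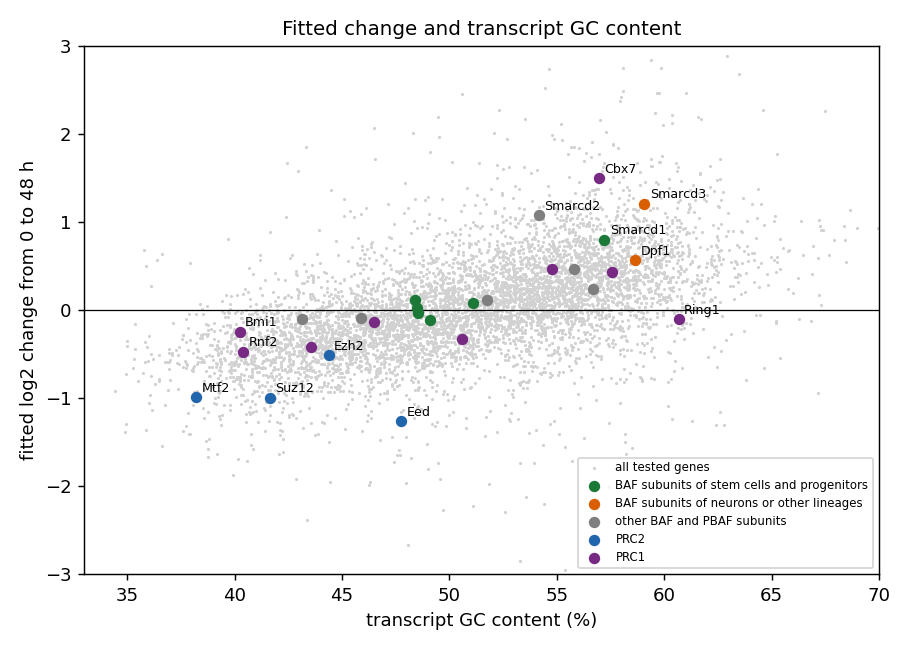
Fitted log2 change from 0 to 48 h (limma, value + 1) against transcript GC content in percent; grey points are all tested genes (17 lie outside the axes) and coloured points the 27 tested members by group. Changes climb with GC content among grey and coloured points alike, and Eed at 47.8% GC has the lowest change of the members.

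Across the 27 tested members the change went up with GC content, as it did across all genes. Pearson's r was 0.75 and Spearman's rho 0.80 over the members, and 0.53 and 0.60 over 6390 genes; these are descriptions across genes that share the same 7 libraries. After GC removal r was 0.37 and rho 0.30 over the members, and r was 0.040 over all genes. The GC-poor genes Rnf2, Rybp and Bmi1 then had changes of 0.058, -0.066 and 0.29, and the GC-poor Suz12 and Mtf2 ones of -0.62 and -0.66.

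**Figure D4:**
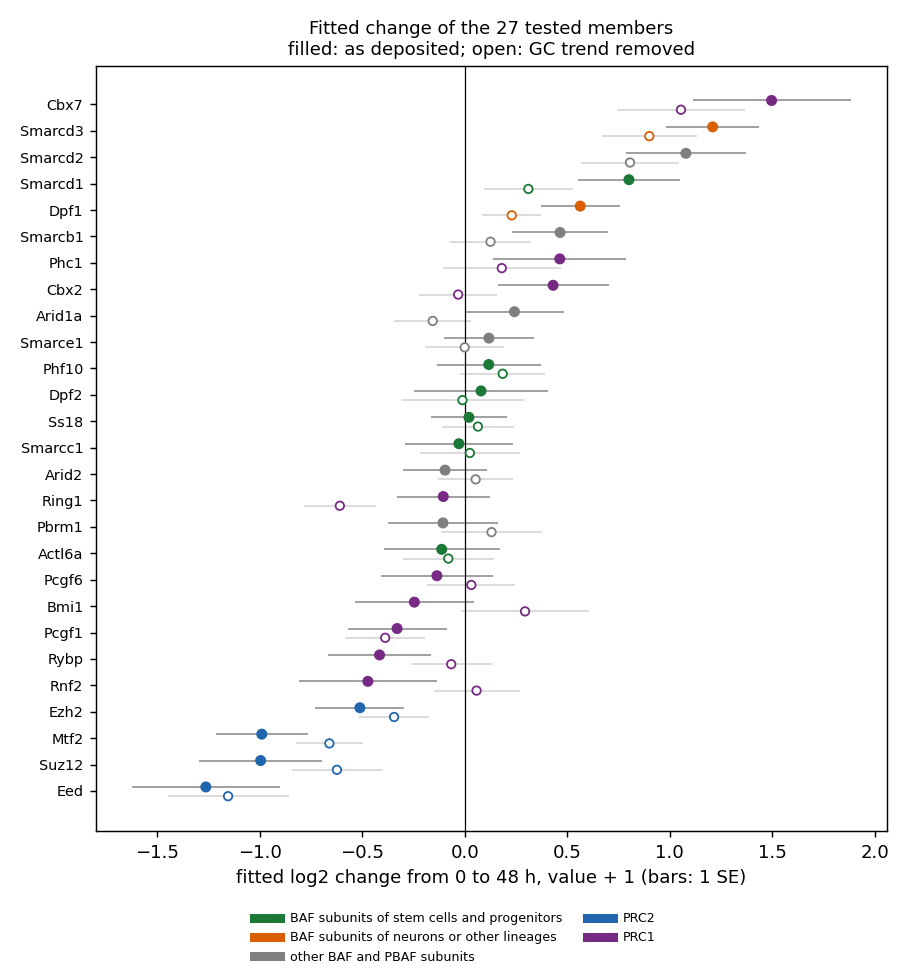
Fitted log2 change from 0 to 48 h of the 27 tested members with bars of 1 standard error, as deposited (filled) and after removal of each library's GC trend (open), coloured by group. Eed, Suz12, Mtf2 and Ezh2 are below 0 and Cbx7, Smarcd2 and Smarcd3 above 0 in both, and Rnf2, Bmi1, Cbx2 and Arid1a are among those that change sign.

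BAF subunits of stem cells and progenitors had no called change. All 6 were tested, 4 with a positive and 2 with a negative change, median 0.050, or 0.045 after GC removal. Actl6a, the actin-related subunit of dividing cells, had values of 14.8, 17.4, 17.4, 14.7, 13.0, 18.8 and 13.4 (-0.11, limma adjusted p = 0.834). Smarcc1, a scaffold subunit of stem cell BAF, had 2.84, 2.77, 2.36, 1.79, 3.35, 2.76 and 2.40 (-0.028, adjusted p = 0.957). Neither kept an order with time.

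Phf10, a zinc-finger subunit of progenitors, had values of 3.49, 5.21, 5.31, 4.60, 4.59, 4.89 and 4.19, lowest at 0 h (0.12, limma adjusted p = 0.806). Dpf2, a related and widely used subunit, had 12.8, 9.91, 9.87, 14.9, 10.7, 9.41 and 14.9, with 6 and 48 h highest (0.080, adjusted p = 0.900). Ss18 lay between 1.02 and 1.43. Smarcd1, a subunit that bridges BAF to transcription factors, had 18.5, 22.5, 20.5, 23.8, 23.8, 27.7 and 35.7, lowest at 0 h and highest at 48 h. Its change was 0.80 ± 0.25 (SE; adjusted p = 0.129), of which 38.8% was left after GC removal (0.31, adjusted p = 0.485).

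The subunits of neuronal and other later forms of BAF stood low, and among them Smarcd3 rose in the fit on reads. Of these 6 genes 2 reached the main test (Smarcd3 and Dpf1) and 4 the fit on reads, all with positive changes, 1 of them called. On reads 6414 of 13498 genes had a positive change, and 2.25% were called rising. The 4 genes had a median GC content of 57.0%, beside 50.6% over all genes tested on reads. After GC removal on reads all 4 were still positive and 0 were called. The filter on reads admits Smarcd3 without its 48 h library. Smarcd3, known from heart and muscle and an alternative to Smarcd1, stood at 0.401, 0.896, 0.878, 0.826, 0.984, 1.83 and 2.53. The 0 h library was lowest, 24 and 48 h were highest, and those between were close together. It rose on reads (2.50 ± 0.44 SE, limma-voom adjusted p = 0.016), from about 56 reads in the first library to 385 in the last. It missed the threshold in the main test (1.21, adjusted p = 0.053) and on reads after GC removal (1.78, adjusted p = 0.074), and without the 0 h (adjusted p = 0.060) or 48 h library (adjusted p = 0.323). Chpf2, on the opposite strand across it, lay between 2.10 and 5.13, highest at 14 h. The promoter windows of both genes that rose on reads are written as above; capitals mark CAGCTG, an E-box read by basic helix-loop-helix factors.

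Smarcd3, chr5:24601953-24602252, minus strand: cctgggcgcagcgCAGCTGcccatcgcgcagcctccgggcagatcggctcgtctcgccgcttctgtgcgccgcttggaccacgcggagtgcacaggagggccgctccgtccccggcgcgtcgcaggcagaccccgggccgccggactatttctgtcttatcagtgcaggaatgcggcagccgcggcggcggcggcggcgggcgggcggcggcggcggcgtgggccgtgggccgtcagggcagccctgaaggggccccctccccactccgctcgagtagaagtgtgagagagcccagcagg
Cbx7, chr15:79932597-79932896, minus strand: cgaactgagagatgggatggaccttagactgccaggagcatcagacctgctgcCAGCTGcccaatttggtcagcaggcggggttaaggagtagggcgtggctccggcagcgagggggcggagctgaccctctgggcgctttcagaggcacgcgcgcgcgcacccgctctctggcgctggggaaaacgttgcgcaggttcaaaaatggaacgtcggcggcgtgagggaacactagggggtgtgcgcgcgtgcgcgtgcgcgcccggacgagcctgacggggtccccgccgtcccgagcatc

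CAGCTG was in 16.3% of all windows and, counted by gene, in 7 of the 31 members with a window (Cbx7, Jarid2, Mtf2 in its second window, Phf10, Ring1, Smarcd1 and Smarcd3). CG dinucleotides numbered 40 in the Smarcd3 window and 33 in that of Cbx7.

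Actl6b, the neuron-specific counterpart of Actl6a, was near the floor until 48 h. Its values were 0.00839, 0, 0.0177, 0.0228, 0, 0 and 0.131, from about 2, 2 and 5 reads at 0, 4 and 6 h and 34 reads at 48 h. It had too few reads for either test. Dpf1, a neuronal zinc-finger subunit, had values of 0.891, 1.12, 1.11, 1.58, 1.52, 1.37 and 1.95, lowest at 0 h and highest at 48 h (0.56, limma adjusted p = 0.150; 0.23 after GC removal). Dpf3, another of that family, had 0.00220, 0, 0.00155, 0.00255, 0.000958, 0.00109 and 0.000945, from 8 reads or fewer in every library. Smarcc2, a scaffold that joins or replaces Smarcc1 in neural cells, had 0.300, 0.272, 0.262, 0.364, 0.405, 0.357 and 0.718, with 48 h alone above the rest (on reads 1.22, limma-voom adjusted p = 0.138). Smarca2, the alternative ATPase, had 0.0213, 0.00834, 0.00902, 0.0181, 0.0374, 0.0209 and 0.0304 (on reads 1.16, adjusted p = 0.333).

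Levels of different genes can be compared only per length of transcript, and on that scale the second gene of each of the 12 pairs was the higher one, with ranges over the 7 libraries that did not overlap. These levels divide reads over the whole span by transcript length, so they include reads in introns. Smarca2 averaged 0.608 and Smarca4, the main ATPase of stem cells, 12.5. Smarcc2 averaged 2.85 and Smarcc1 49.4, and Actl6b averaged 0.260 and Actl6a 144. Smarcd3 averaged 6.46 and Smarcd1 88.4, and the highest library of Smarcd3 (13.7) was below the lowest of Smarcd1 (66.3). In Polycomb, Ezh1 averaged 5.93 and Ezh2 27.01, Ring1 5.13 and Rnf2 59.5, and Phf19 0.651 and Mtf2 11.3. Cbx2 averaged 14.2 and Cbx8 1.29, beside 58.5 for Cbx7.

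Whether a subunit gained on its counterpart with time was tested on the log2 ratio of each pair, and 0 of the 12 passed as deposited (exact two-sided permutation test, adjusted over 12). At an unadjusted p under 0.05 there were 4 (Smarcd3/Smarcd1, Cbx2/Cbx7, Cbx8/Cbx7 and Phf19/Mtf2), and the smallest p the 5040 orders allow is 0.000198. Smarcd3/Smarcd1 was -5.21 in the 0 h library, between -4.69 and -4.40 in those of 2 to 14 h, -3.85 at 24 h and -3.76 at 48 h. Its change of 1.32 ± 0.27 (SE) had an adjusted p = 0.073 by the exact test, and after GC removal 1.28 ± 0.29 had one of 0.046. Cbx8/Cbx7 and Ring1/Rnf2 also reached 0.046 after GC removal. The form of GC removal used here replaced an earlier one after the outcome of the earlier one was seen. Phf19/Mtf2 had 2.11 ± 0.70 (adjusted p = 0.099 by the exact test; 0.162 after GC removal). Beside Smarcd3/Smarcd1, no pair with a subunit of neuronal or other later BAF passed, as deposited or after GC removal. As deposited Actl6b/Actl6a had 0.80 ± 0.64 (exact adjusted p = 0.377) and Smarcc2/Smarcc1 0.95 ± 0.51 (0.267). Dpf1/Phf10 had 0.78 ± 0.37 (0.205) and Smarca2/Smarca4 -0.32 ± 0.21 (0.277). Ezh1/Ezh2 had 0.92 ± 0.60 (0.277), or 0.077 without the 48 h library, where Smarcc2/Smarcc1 had 0.37. Arid1b/Arid1a had 0.035 ± 0.16 (0.855) and Dpf3/Dpf2 -0.094 ± 0.36 (0.855). The added 0.1 is larger than every value of Smarca2 and Dpf3, and than those of Actl6b before 48 h. The ratios of these genes therefore follow mainly the second gene of the pair and cannot decide whether an exchange took place. On reads Smarca2 had a change of 1.16 and Smarca4 one of 0.57, neither called.

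**Figure D5:**
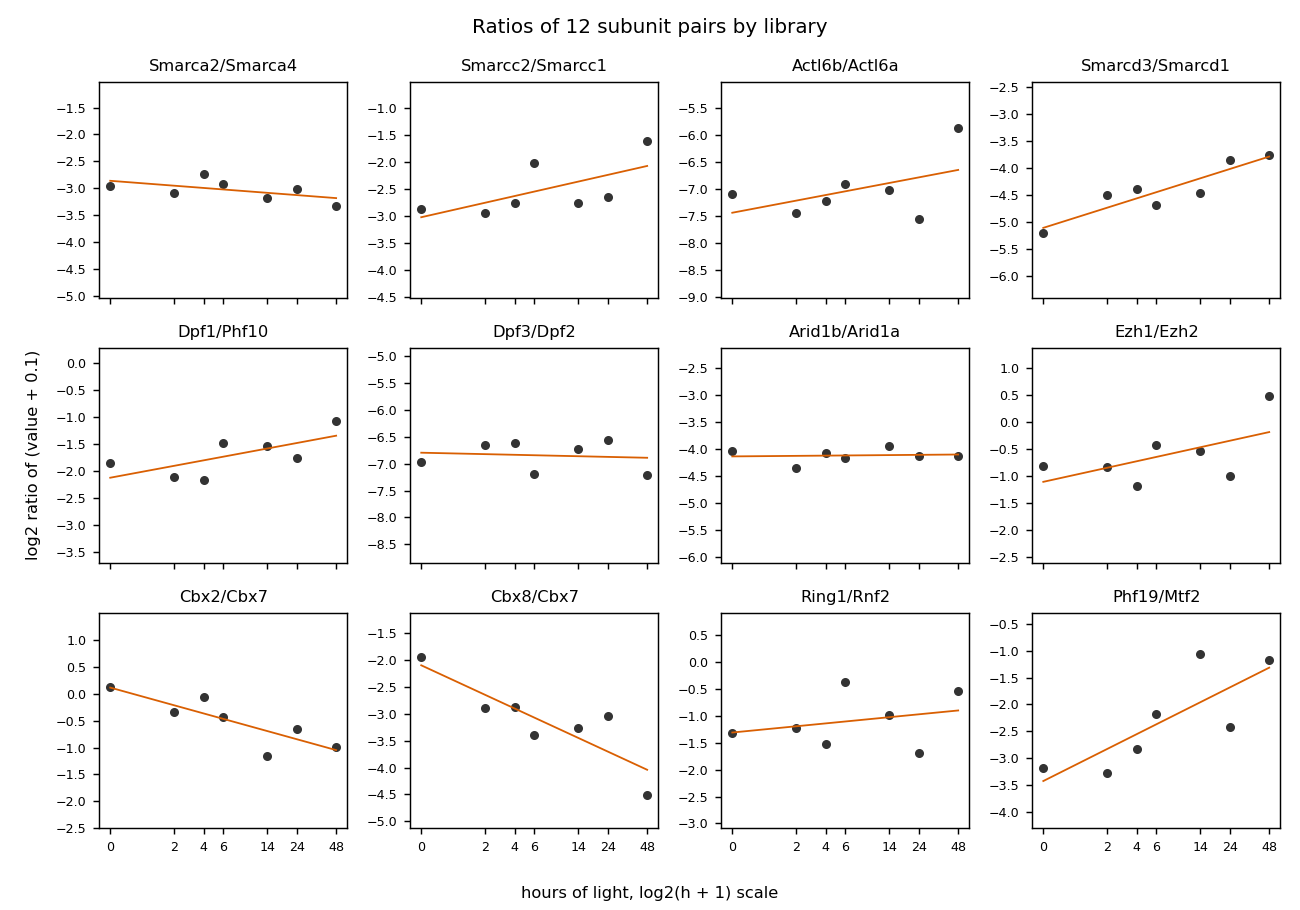
Log2 ratio of the values plus 0.1 for 12 pairs of related subunits against hours of light on a log2(h + 1) scale; points are single libraries, lines are least-squares fits, and each panel spans the same height. Smarcd3/Smarcd1 and Phf19/Mtf2 slope up, Cbx2/Cbx7 and Cbx8/Cbx7 slope down, and the high point of Actl6b/Actl6a is the 48 h library.

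The other BAF and PBAF subunits gave no call in either fit. Of the 6 tested, 4 had a positive change, median 0.18, or 0.090 after GC removal. Smarcd2, another alternative at the Smarcd position, lay between 6.40 and 10.2 through 24 h and was 16.5 at 48 h (1.08, limma adjusted p = 0.103; 0.81 after GC removal, adjusted p = 0.152). Smarca4 had values of 0.840, 0.823, 0.622, 0.799, 1.14, 0.878 and 1.21, Arid1a, a large DNA-binding subunit, 4.78, 4.75, 4.20, 5.94, 5.99, 4.89 and 5.74, and its alternative Arid1b 0.197, 0.139, 0.157, 0.238, 0.296, 0.184 and 0.232. None of the 3 kept an order with time. Smarcb1 and Smarce1, shared subunits, lay between 3.37 and 5.54 and between 4.71 and 6.09. Arid2 (1.16 to 1.68) and Pbrm1 (0.734 to 1.63), which define PBAF, were highest at 14 h.

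By size alone, after adding 1 to each value, 3 of the 27 tested members (11.1%) were at least 2-fold higher at 48 h than at 0 h, beside 7.89% of all genes, and 3 (11.1%) at least 2-fold lower, beside 5.38%. The former were Cbx7, Smarcd2 and Smarcd3 and the latter Eed, Suz12 and Mtf2. Smarcd3 reached the mean of 1 only with its 48 h library and Mtf2 only with its 0 and 2 h libraries. The filter therefore favoured counting both, and these shares cannot be read as above the background. After GC removal 1 was at least 2-fold higher (Cbx7, beside 3.59% of genes) and 1 lower (Eed, beside 2.7%). Against the 2 h library 1 was higher, beside 4.76% of genes, and 2 were lower, beside 2.96%.

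Further genes of both systems gave 0 calls in the main test. Of 11 other BAF genes 6 were tested, 2 with a positive change. As deposited the changes largest in size were those of Bcl7c (0.63, limma adjusted p = 0.227), Brd7 (-0.23), Brd9 (-0.19) and Actb (0.18). After GC removal Bcl7c, at 67.7% GC, had -0.067, Brd7 -0.12, Brd9 -0.21 and Actb 0.079, and Bcl7b then had the largest (-0.34). Ss18l1, the neuronal counterpart of Ss18, lay between 0.188 and 0.366 (on reads -0.73, limma-voom adjusted p = 0.314). Of 23 other Polycomb genes 22 were found and 12 tested, 7 with a positive change. Aebp2, an accessory subunit of PRC2, fell in the fit on reads (-1.68, limma-voom adjusted p = 0.037; values 1.92 at first and 0.672 at last) and had -0.999 after GC removal (adjusted p = 0.142). Phc2 (1.03, limma adjusted p = 0.122), Pcgf2 (0.91, adjusted p = 0.149) and Cbx6 (0.48, adjusted p = 0.449), all of PRC1, did not pass, and had 0.60, 0.66 and 0.058 after GC removal. Of the enzymes that remove the PRC2 mark, Kdm6b had a change of 0.68 (limma adjusted p = 0.275), or 0.14 after GC removal, and Kdm6a, tested on reads alone, one of -0.87 (limma-voom adjusted p = 0.103), or -0.30 after GC removal.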

How the data were processed

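RNA of 7 libraries was analysed, 1 per time point. The labels' protocols name an RNeasy kit for extraction and the Lexogen SENSE kit for libraries; the submitters' processing notes name Bowtie2 and the mm9 build. Counter, annotation and strand setting: not given in the sources used here. Deposited by the authors was 1 value per RefSeq transcript and library with no named unit. Multiplied by genomic span and a library factor, 79.5% to 81.1% of the deposited values worth 2 to 20 reads came within 0.1 of a whole read, so they were read as RPKM over the span. The reads recovered this way are approximate, because spans came from GRCm38.

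Of 30673 rows, 3320 start-site rows at 0, 695 further placements and 413 transcripts without a symbol were left out. Trends were fitted with limma 3.58.1 in R 4.3.3 (mean-variance trend, 5 residual degrees of freedom), and reads with limma-voom for genes of at least 10 reads in at least 3 libraries. In the limma fits, pair ratios and fold counts, GC removal divided values by a natural spline of transcript GC per library. The spline had 5 degrees of freedom and was fitted on 2449 genes with a mean of at least 5. For these a first version that subtracted the trend on the log scale was replaced after its outcome was seen. In the fit on reads the trend was subtracted on the log scale. GC content was available for 6390 of the tested genes and all 37 members. The fits were tested on simulated data. Pair ratios used values plus 0.1.

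Values in every library are given for members called in either fit and for both genes of each pair. They are also given for Eed and Suz12, chosen after their values were seen, and the rest are given by range. Up to 4 genes of each other list with the largest changes are named, and Ss18l1. Rbbp4, Rbbp7, Phf1 and Epop were added after the values were seen. Members, lists, pairs and motifs were chosen with earlier results of these data known, and the 5 member groups and the motifs after the values were seen. Alternatives were other normalizations, pseudocounts, filters, time scales and transcript rows, GC removal, the fit on reads and each library left out; the fit on reads without each library, and the lower filter with GC removal, were added after seeing the data.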

Additional observations from a re-analysis of the deposited data

How the results depend on the processing

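Over the whole table the main test called 19 genes rising and 4 falling. These counts were 1 and 0 with quantile normalization, 36 and 7 with pseudocount 0.1, 0 and 0 with pseudocount 5 and with no filter on low values, 162 and 28 with linear hours, 43 and 12 with ranked times, 10 and 4 after GC removal, 304 and 108 on reads, 236 and 82 on reads after GC removal, and 2 and 1 with the lower filter, pseudocount 0.1 and GC removal. Leaving out 1 library gave 1 to 54 rising and 0 to 25 falling, and on reads 4 to 471 and 3 to 318. Of the members, 1 rose with pseudocount 0.1 (Smarcd3), 2 with linear hours (Smarcd2 and Smarcd3), and on reads 2 rose and 1 fell, or 0 and 0 after GC removal. Leaving out 1 library gave 0 to 1 rising (Smarcd3 without 14 h) and 0 falling, and on reads 0 to 3 rising and 0 to 4 falling. Of the pairs 0 passed as deposited and 3 after GC removal, in a form chosen after the outcome of an earlier form was seen. At least 2-fold higher at 48 h were 1 member after GC removal (3.59% of all genes) and 1 against the 2 h library (4.76%), and at least 2-fold lower was 1 after GC removal (2.7%).

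Uncalled changes are listed as turned in sign where they moved by more than 1 standard error, a rule set after the values were seen; the cause was not tested. After GC removal, in the main test, on reads and with the lower filter in that order, Arid1a was at -0.16, -0.24 and -0.18, Rnf2 at 0.058, 0.15 and 0.067, Cbx2 at -0.032, -0.069 and -0.036, and Bmi1 at 0.29, 0.41 and 0.35. Pbrm1 was at 0.28 on reads and 0.23 with the lower filter, Arid2 at 0.11 on reads, Smarca2/Smarca4 at 0.041 and Ring1/Rnf2 at -0.87. Among the further BAF and Polycomb genes in the main test, Bcl7c turned to -0.067, Epop to -0.45, Rbbp4 to 0.31 and Pcgf3 to 0.23. With pseudocount 1 Arid1b/Arid1a was at -0.16. Leaving out 1 library gave ranges across 0 of -0.29 to 0.37 for Dpf2, -0.31 to 0.32 for Phf10, -0.20 to 0.23 for Pbrm1, -0.44 to 0.12 for Bmi1, -0.43 to 0.58 for Ezh1 on reads, -0.18 to 1.38 for Actl6b/Actl6a and -0.40 to 0.31 for Dpf3/Dpf2. Without crossing 0, the range was 0.025 to 1.01 for Phc1, 0.077 to 1.42 for Ezh1/Ezh2, 0.37 to 1.20 for Smarcc2/Smarcc1 and 0.43 to 1.24 for Dpf1/Phf10. No paired analysis was possible because each time point has 1 library. Depth limits Actl6b, Dpf3, Smarca2, Cbx8 and Phf19, which rest on few reads.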
